A study of Mus musculus with 18 samples.

Results

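Nrf2, encoded by Nfe2l2, belongs to the cap'n'collar (CNC) family of transcription factors, and the genes described here are its relatives, repressors and partners. The list of 10 genes holds 3 CNC activators (Nfe2, Nfe2l1 and Nfe2l3), the CNC-type repressors Bach1 and Bach2, the 2 components of the ligase that degrades Nrf2 (Keap1 and Cul3), and the 3 small Maf proteins (Maff, Mafg and Mafk). The members were chosen by name, with no measured value in the rule but with earlier results of these data known. Every probe that the arrays' annotation assigned to them was used. Of the 10 genes, 9 had a probe, with 10 probes among 41174 on the array, and Bach2 had none that matched. All 9 entered a test over 22671 genes, but only 8 of them were well above background on all 18 arrays. The ninth, Nfe2, was well above background on all 3 wild-type brainstem arrays and on 1 wild-type cortex array, and it entered the test solely through the wild-type brainstem.

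The arrays, single-colour Agilent designs labelled with Cy3, measured total RNA from brainstem, hippocampus and cortex of male 129SV mice. Nrf2 knockout mice (KO) were set against wild-type mice (WT), with 3 arrays for each genotype in each region and 18 in all, and the mice had not been put under stress. Both genotypes share strain and sex, the labels number 3 mice in each genotype, and the RNAs are described as independent. The age of the mice and the part of Nfe2l2 that was disrupted are not given in the sources used here.

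Nrf2, Nfe2, Nfe2l1 and Nfe2l3 bind DNA as heterodimers with a small Maf protein, at antioxidant response elements and related sites. Bach1 and Bach2 bind similar sites with the same partners and repress transcription there, and pairs made of small Mafs alone, which lack an activation domain, also repress. In unstressed cells Keap1 holds Nrf2 on the Cul3 ubiquitin ligase, so that Nrf2 is degraded in the proteasome. The relatives can therefore occupy some of the same sites as Nrf2, and the comparison of knockout with wild-type mice asks whether their mRNA levels changed where Nrf2 was missing. The comparison of regions asks where in the brain each is more highly expressed.

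Levels are log2 of the scanner's processed signal minus the 75th percentile of the same array, so that 0 is the 75th percentile of all probes. A level of 1 probe was not set against that of another. The labelled genotypes were checked with Nfe2l2, whose level was -7.33, -6.49 and -4.92 in KO brainstem, against 1.10, 1.29 and 1.39 in WT brainstem. It was lower on all KO arrays than on all WT arrays in hippocampus and cortex too. The regions were checked with their markers: the hindbrain genes Hoxa2, Hoxb2 and Hoxa5 were well above background on all 6 brainstem arrays, and all 6 cortical markers, Tbr1 and Emx1 among them, were lower in WT brainstem than in WT cortex. Of the 6 hippocampal markers, 5 were higher in WT hippocampus than in WT cortex. The summed cortical markers did not set cortex apart from hippocampus, at 40.2 to 40.8 times the 75th percentile in WT hippocampus and 29.6 to 30.8 in WT cortex. Between 65.3% and 75.1% of spots per array were well above background and none was saturated. WT brainstem array 3 and WT cortex array 3, which carry the same mouse number, stood apart in neutrophil markers (4 genes, S100a8 and S100a9 among them), with summed levels of 16.5 and 6.58 times the 75th percentile against 0.284 to 1.98 on the other 16 arrays. KO brainstem array 3 stood apart in summed cortical markers, at 6.98 against 1.58 to 3.47 on the other 5 brainstem arrays, and in summed hippocampal markers, at 13.3 against 8.32 to 9.08. In such tissue samples, fewer cells of a type and less RNA per cell cannot be told apart.

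The promoters of the members were searched for the core of the antioxidant response element, spelled TGACNNNGC, on both strands. RefSeq (GRCm38.p6) gave 15 promoters of 300 bases for 9 of the 10 genes, Nfe2 being the exception, each from 250 bases before a transcript's start to 50 bases after it. Of these, 3 held the core, 1 of 3 promoters of Maff and the sole promoter each of Mafg and Mafk: Maff had it on the coding strand from base -112 to base -104, Mafg on the opposite strand from -222 to -214, and Mafk on the opposite strand from -13 to -5, counted from the start with -1 as the base before it. Among all 32851 RefSeq promoters, 12.4% held the core. The related sequence TGANTCA, a site of AP-1 factors that Bach and Nfe2 dimers also recognise, was in none of the 15 promoters and in 7.81% of all. The core also lies in the promoter of Nfe2l2 itself. A match is only of these letters. The 15 promoters, some of which overlap at Nfe2l1, are too few to set 3 of them against the share among all promoters. The 3 promoters are shown as those in which the letters were found. They read 5′ to 3′ on the strand of the gene, with the core in capitals, which for Mafg and Mafk appears as its reverse complement. The intervals are chr15:79346371-79346670 (plus strand) for Maff, chr11:120633498-120633797 (minus strand) for Mafg and chr5:139791286-139791585 (plus strand) for Mafk.
Maff: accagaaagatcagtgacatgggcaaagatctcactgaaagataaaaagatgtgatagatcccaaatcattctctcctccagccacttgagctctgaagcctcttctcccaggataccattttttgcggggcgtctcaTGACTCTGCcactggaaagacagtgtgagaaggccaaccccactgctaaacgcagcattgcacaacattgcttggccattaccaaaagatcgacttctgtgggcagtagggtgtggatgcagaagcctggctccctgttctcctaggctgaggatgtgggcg
Mafg: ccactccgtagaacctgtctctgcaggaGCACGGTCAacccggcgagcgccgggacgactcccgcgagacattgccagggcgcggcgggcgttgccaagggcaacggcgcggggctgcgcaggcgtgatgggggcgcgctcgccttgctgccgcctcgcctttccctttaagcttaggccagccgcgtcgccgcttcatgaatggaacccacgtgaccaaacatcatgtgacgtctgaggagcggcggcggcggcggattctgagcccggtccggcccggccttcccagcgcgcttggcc
Mafk: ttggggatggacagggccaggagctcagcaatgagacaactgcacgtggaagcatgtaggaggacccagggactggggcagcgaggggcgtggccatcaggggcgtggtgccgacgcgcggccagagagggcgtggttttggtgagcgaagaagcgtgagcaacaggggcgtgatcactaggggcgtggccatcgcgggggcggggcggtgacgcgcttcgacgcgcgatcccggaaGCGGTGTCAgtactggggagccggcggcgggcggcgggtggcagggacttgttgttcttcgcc

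None of the 8 members measured on all arrays was called between KO and WT mice in brainstem, hippocampus or cortex, or in the mean of the 3 regions. The background was low: limma called 0.0309% of all genes in brainstem, 0.0176% in hippocampus, 0.0309% in cortex and 0.0529% in the mean of the regions (Benjamini-Hochberg adjusted p under 0.05). The CNC factor Nfe2l1 had the highest KO minus WT difference of the 8 in every region, at 0.23 ± 0.13 log2 units in brainstem, 0.10 ± 0.13 in hippocampus and 0.14 ± 0.13 in cortex (± SE). The small Maf Mafg had the lowest in brainstem (-0.18 ± 0.18) and in cortex (-0.20 ± 0.18), and the small Maf Maff the lowest in hippocampus (-0.25 ± 0.25). Over the 8 members the median difference was -0.013 in brainstem, -0.119 in hippocampus and -0.027 in cortex, beside medians over all genes of 0.002, 0.022 and 0.001.

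How large a change could have been missed is set by the intervals. The 95% intervals of all 8 differences lay between a 0.673-fold and a 1.45-fold KO to WT ratio in brainstem, between 0.579-fold and 1.34-fold in hippocampus, and between 0.663-fold and 1.43-fold in cortex. For the mean of the 3 regions they lay between 0.756-fold and 1.25-fold. Intervals and SE over the 3 regions, here and below, take the arrays of different regions as independent, although these carry the same mouse numbers. If they come from the same animals, such intervals may be too narrow. On data simulated for the cortex comparison, with 50 genes changed at each size, the same fit called 18% of changes of 0.5 log2 units, 60% of changes of 1, 84% of changes of 2 and 96% of changes of 4. These shares may be too high for the real data. The simulated noise was independent between arrays, and the many changed genes loosen the adjusted threshold. The real cortex comparison called only 7 of 22671 genes. The difference of the KO effect between regions was tested too, and limma called no gene at all in any of its 3 forms. At an unadjusted p under 0.05 there were 189, 200 and 222 genes for hippocampus minus cortex, brainstem minus cortex and brainstem minus hippocampus, and the sole member among them, in the last 2 tests, was Nfe2.

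**Figure D1:**
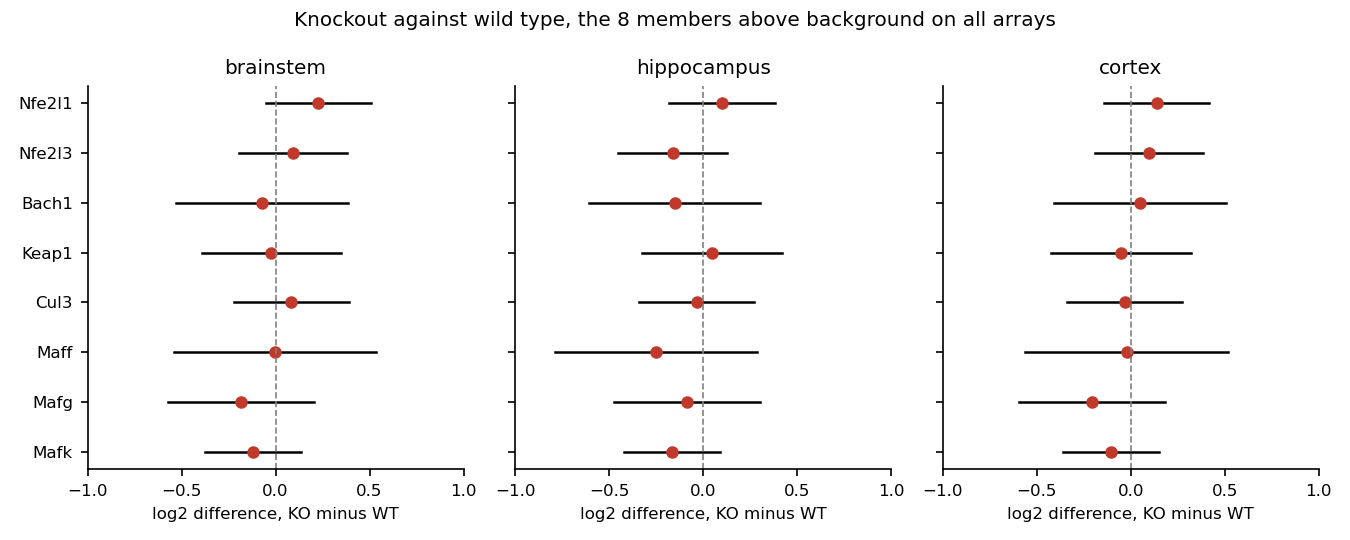
KO minus WT log2 difference of the 8 members above background on all 18 arrays, with its 95% interval (limma, 3 arrays per genotype and region), in brainstem, hippocampus and cortex. Every interval includes 0, and the points lie between -0.25 (Maff, hippocampus) and 0.23 (Nfe2l1, brainstem).

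Nfe2, the CNC subunit of the factor NF-E2 that drives globin and platelet genes in blood cell precursors, was lower in KO brainstem than in WT brainstem. Its processed signal was 5.66, 8.4 and 6.3 intensity units in KO brainstem, not well above background on any array, against 43.2, 69.3 and 41.5 in WT brainstem, well above background on all 3. On the log2 scale these were -7.19, -6.65 and -6.99 in KO brainstem and -4.67, -3.51 and -4.44 in WT brainstem. The groups did not overlap, and Nfe2 was at least 4.15-fold lower in KO brainstem as scaled here (limma adjusted p = 0.0251), a bound set by the dimmest signal still above background on the KO arrays. Because the probe passed the background filter solely through WT brainstem, that group had to be the higher one. It was 1 of 9 tested members called, beside 0.0221% of all genes called lower in that comparison. With its direction fixed by the filter, the count and the adjusted p are a description, and no excess over that share is read from them. The call did not hold with the replicate number as a block, which joins KO and WT mice of the same number (adjusted p = 0.0619). It was lost under 11 of 28 alternatives in all. With normexp background correction the difference was -0.45 in place of -2.73 log2 units (adjusted p = 0.994).

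Elsewhere Nfe2 could not be compared. It had levels of -8.04, -8.48 and -8.22 in KO hippocampus, against -7.11, -6.61 and -8.15 in WT hippocampus, with no array of either genotype well above background. In cortex it had -6.77, -7.59 and -7.40 in KO and -6.50, -7.12 and -5.92 in WT, of which the last alone was well above background. No difference is given for these regions, nor for the mean of the regions, which limma called (adjusted p = 0.0263) on values that were mostly background. Between regions of WT mice the filter again fixed the direction, and the values are a description. By the same bound on group means, without sampling error, Nfe2 was at least 5.49-fold higher in brainstem than in hippocampus. The WT brainstem arrays were all above the WT cortex arrays, 1 of which measured the gene. With normexp these differences were 0.50 against hippocampus and 0.32 against cortex, in place of 3.08 and 2.31 log2 units.

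Within the slides, the brainstem difference in Nfe2 was -2.83 on slide 1, with 2 arrays per genotype, and -2.55 on slide 2, with 1 array per genotype. Blood cell markers were set beside it. The neutrophil sum was 1.98, 1.97 and 1.84 in KO brainstem and 1.29, 0.755 and 16.5 in WT brainstem. Without WT brainstem array 3 the Nfe2 difference was -2.85 (adjusted p = 0.0530). The summed erythroid markers were 20.1, 25.6 and 15.3 in KO brainstem and 13.5, 24.0 and 17.3 in WT brainstem. The erythroid sums of the 2 genotypes overlapped. In WT brainstem, array 2 had the highest Nfe2 level and the highest erythroid sum. The KO brainstem arrays, none well above background for Nfe2, are not ranked. The platelet markers ranged from 0.425 to 0.559 in KO and from 0.493 to 1.14 in WT brainstem. Of the erythroid genes, Gata1 was well above background on no array and Epb42 on 1. No blood marker tested was called between KO and WT brainstem (0 of 4 erythroid, 0 of 4 platelet, 0 of 4 neutrophil and 0 of 2 B cell genes), beside 0.0309% of all genes. The markers' part in the Nfe2 result was not tested.

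**Figure D2:**
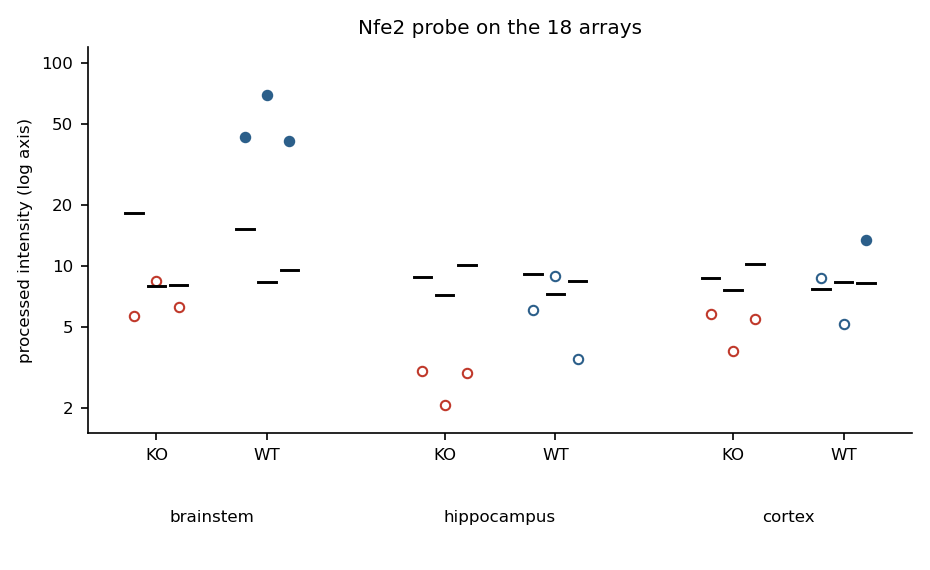
Processed intensity of the Nfe2 probe (log axis) on each array, KO in red and WT in blue, with filled points well above background and open points not; each black tick is the lowest signal that was well above background on that array. The 3 WT brainstem arrays, at 41.5 to 69.3, stand above their ticks, and all KO points are open.

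Nfe2l1, a CNC factor held in the endoplasmic reticulum membrane that drives proteasome genes when the proteasome is inhibited, was the highest of the 8 in its KO differences but was not called. Its levels were 5.20, 5.23 and 5.53 in KO brainstem, against 5.11, 5.19 and 4.96 in WT brainstem. In hippocampus they were 4.83, 4.77 and 4.79 in KO, against 4.68, 4.64 and 4.77 in WT. The KO arrays were all above the WT arrays in these 2 regions, although the nearest KO and WT arrays almost touched, and such separation was seen in 6.6% of all genes in brainstem and 7.75% in hippocampus. In cortex the genotypes overlapped, with 5.57, 5.17 and 5.004 in KO and 5.18, 5.13 and 5.03 in WT. Over the 3 regions the difference was 0.156 ± 0.076 log2 units, a 1.11-fold ratio with a 95% interval of -0.006 to 0.318 (limma adjusted p = 0.725). It stayed positive under all 29 alternatives run. These reuse the same arrays and several keep the estimate unchanged by construction, so the shared sign adds no support. Within the slides the difference was uneven. In brainstem it was 0.06 on slide 1 and 0.57 on slide 2, which held KO brainstem array 3. In hippocampus it was 0.15 on slide 2 and 0.07 on slide 3, and in cortex 0.22 on slide 4 and -0.02 on slide 5.

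Between regions, Nfe2l1 was lowest in hippocampus. It was higher in brainstem than in hippocampus by 0.52 ± 0.13 log2 units in KO mice (limma adjusted p = 0.00524) and by 0.39 ± 0.13 in WT mice (adjusted p = 0.0254). Hippocampus was lower than cortex by a difference of -0.45 ± 0.13 in KO (adjusted p = 0.0279) and of -0.42 ± 0.13 in WT mice (adjusted p = 0.0413, or 0.0577 with the mouse as a block, where the call did not hold). The groups did not overlap in any of these 4 comparisons, a separation seen in 48.2% of genes in KO and 57.3% in WT mice between brainstem and hippocampus, and in 31.4% and 40.4% between hippocampus and cortex. Brainstem and cortex did not differ beyond their spread, at 0.07 ± 0.13 in KO and -0.02 ± 0.13 in WT mice. On the slide that held both regions, brainstem minus hippocampus was 0.70 in KO and 0.29 in WT mice, with 1 array each. Its brainstem arrays, here and for the genes below, were KO array 3 and WT array 3, which both stood apart in markers. Without KO cortex array 1, the highest of all 18, the KO difference between hippocampus and cortex was -0.29 (adjusted p = 0.103), and without KO hippocampus array 1, 2 or 3 its adjusted p was 0.0662 to 0.0731. The WT call was lost without any WT cortex, WT hippocampus or KO hippocampus array or WT brainstem array 1 (adjusted p = 0.0503 to 0.132), and that between WT brainstem and WT hippocampus without WT hippocampus or WT brainstem array 1 or 2 (0.0647 to 0.0924) and with the slide as a fixed block (0.0784).

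Nfe2l3, the third CNC activator, is a membrane-bound relative of Nfe2l1. It marked the brainstem in both genotypes. Its levels were -2.42, -2.44 and -2.46 in KO brainstem, and -2.48, -2.38 and -2.74 in WT brainstem. In hippocampus they were -4.07, -4.16 and -3.82 in KO and -3.77, -3.79 and -4.01 in WT. In cortex they were -4.15, -4.04 and -3.93 in KO and -3.96, -4.04 and -4.41 in WT. All 6 brainstem arrays were above all 12 others, by more than 1 log2 unit, and the genotypes overlapped in every region. Brainstem exceeded cortex by 1.60 ± 0.13 log2 units, a 3.03-fold ratio, in KO mice (limma adjusted p = 3.94e-07) and by 1.60 ± 0.13, a 3.04-fold ratio, in WT mice (adjusted p = 3.79e-07). It exceeded hippocampus by 1.57 ± 0.13 in KO (adjusted p = 3.68e-07) and by 1.32 ± 0.13 in WT mice (adjusted p = 1.97e-06).

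The size for Nfe2l3 depended on the probe and on the background correction. The other Nfe2l3 probe, also above background on all arrays, gave smaller differences: brainstem minus cortex was 0.73 in KO (adjusted p = 0.00144 over all probes) and 0.67 in WT mice (0.00261), and brainstem minus hippocampus was 0.82 in KO (0.00049) and 0.81 in WT mice (0.000509). With normexp in place of the scanner's background subtraction, the 4 differences of the main probe were between 0.73 and 0.84 and still called. On the shared slide, brainstem minus hippocampus was 1.61 in KO and 1.03 in WT mice. Hippocampus and cortex did not differ beyond their spread in KO mice (0.02 ± 0.13). In WT mice the difference was 0.28 ± 0.13 (adjusted p = 0.178), which was called with the mouse as a block (adjusted p = 0.0454).

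**Figure D3:**
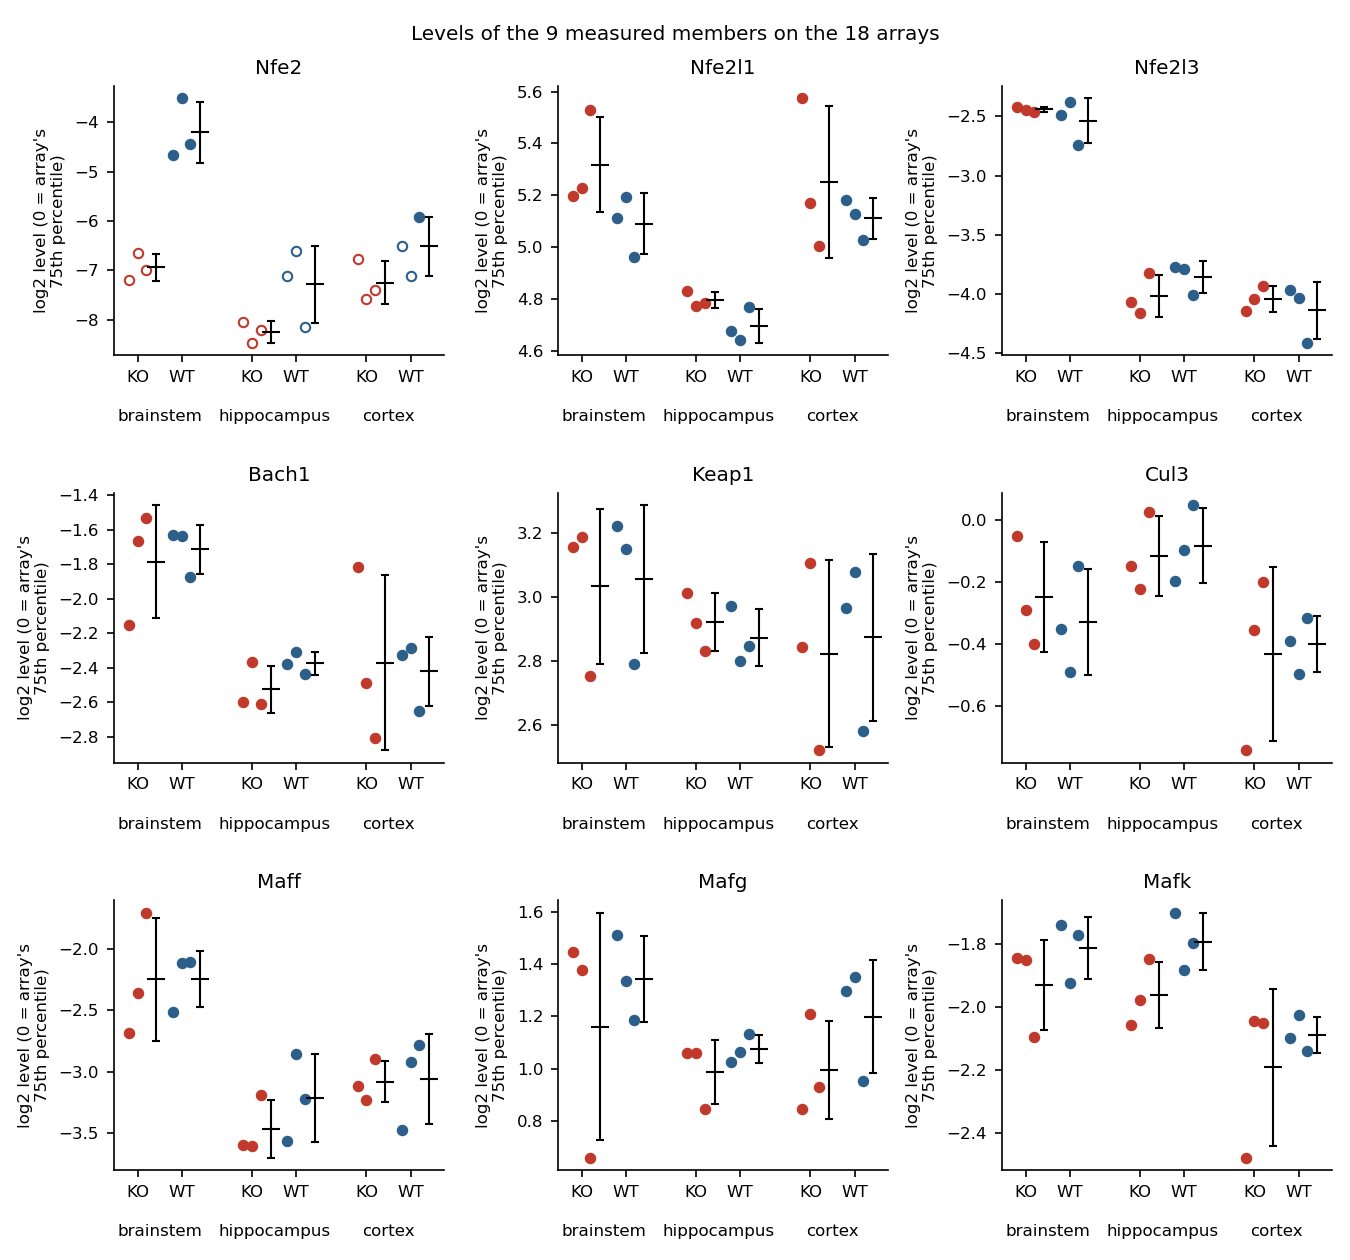
Log2 level (0 is the array's 75th percentile) of the 9 measured members on each array, KO in red left of WT in blue in brainstem, hippocampus and cortex, with mean ± SD in black (n = 3); filled points were well above background, and each panel has its own axis. Nfe2l3, Maff and Bach1 sit higher in brainstem in both genotypes, and Nfe2 is filled on all 3 WT brainstem arrays.

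Bach1, a heme-binding repressor that occupies antioxidant response elements with small Mafs and keeps Hmox1 low, was not called between genotypes. Its levels were -2.15, -1.67 and -1.53 in KO brainstem, and -1.63, -1.64 and -1.88 in WT brainstem. In hippocampus they were -2.60, -2.37 and -2.61 in KO and -2.38, -2.31 and -2.44 in WT. In cortex they were -1.81, -2.49 and -2.81 in KO and -2.32, -2.29 and -2.65 in WT. KO and WT overlapped in each region, and the KO minus WT differences were -0.07 ± 0.21 in brainstem, -0.15 ± 0.21 in hippocampus and 0.05 ± 0.21 in cortex.

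Bach1 was higher in brainstem than in hippocampus, by 0.74 ± 0.21 log2 units in KO (limma adjusted p = 0.012) and by 0.66 ± 0.21 in WT mice (adjusted p = 0.0218). In WT mice it was higher in brainstem than in cortex by 0.71 ± 0.21 (adjusted p = 0.0177). In KO mice that difference was 0.59 ± 0.21 (adjusted p = 0.0444), but the groups overlapped through KO cortex array 1 and the call did not hold with the mouse as a block (adjusted p = 0.0631). It held in only 4 of 18 refits that each left out 1 array, and fell to 0.37 without KO cortex array 3 (adjusted p = 0.205). The WT calls were lost without WT cortex array 3 (brainstem minus cortex, adjusted p = 0.0768), without WT hippocampus array 1 or 3 (brainstem minus hippocampus, 0.0526 and 0.0613) and without WT brainstem array 1 or 2 (0.0555 to 0.0679 in both). Hippocampus and cortex did not differ beyond their spread, at -0.15 ± 0.21 in KO and 0.05 ± 0.21 in WT mice. On the shared slide, brainstem minus hippocampus was 1.06 in KO and 0.50 in WT mice.

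Keap1, the sensor that binds Nrf2 and is modified by electrophiles, varied little across the 6 groups. Its levels ran from 2.76 to 3.19 in KO and from 2.79 to 3.22 in WT brainstem. They ran from 2.83 to 3.02 in KO and from 2.80 to 2.97 in WT hippocampus, and from 2.52 to 3.11 in KO and from 2.58 to 3.08 in WT cortex. Its 6 group means spanned 0.23 log2 units, the narrowest span of the 9 measured members, and no comparison between genotypes or regions called it. The KO minus WT difference over the regions was -0.009 ± 0.10, with a 95% interval of -0.223 to 0.206.

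Cul3, the scaffold of the ubiquitin ligase that Keap1 joins to Nrf2, was likewise called in no comparison. Its levels ran from -0.40 to -0.05 in KO and from -0.49 to -0.15 in WT brainstem. They ran from -0.22 to 0.03 in KO and from -0.20 to 0.05 in WT hippocampus, and from -0.74 to -0.20 in KO and from -0.50 to -0.31 in WT cortex. Over the regions the KO minus WT difference was 0.006 ± 0.082, with a 95% interval of -0.171 to 0.182. Hippocampus was highest and cortex lowest, by 0.32 ± 0.14 log2 units in each genotype, which missed the threshold in KO (limma adjusted p = 0.155) and in WT mice (adjusted p = 0.152).

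Maff, a small Maf that is induced by stress and inflammatory signals, was higher in brainstem than elsewhere in both genotypes. Its levels were -2.68, -2.36 and -1.71 in KO brainstem, and -2.51, -2.12 and -2.11 in WT brainstem. In hippocampus they were -3.59, -3.60 and -3.19 in KO and -3.56, -2.85 and -3.22 in WT. In cortex they were -3.12, -3.23 and -2.90 in KO and -3.47, -2.92 and -2.78 in WT. All brainstem arrays were above all other arrays, with KO brainstem array 1 the lowest of them and WT cortex array 3 the nearest below. Brainstem exceeded hippocampus by 1.21 ± 0.25 log2 units, a 2.32-fold ratio, in KO mice (limma adjusted p = 0.00133) and by 0.97 ± 0.25, a 1.95-fold ratio, in WT mice (adjusted p = 0.00637). It exceeded cortex by 0.83 ± 0.25 in KO (adjusted p = 0.018) and by 0.81 ± 0.25 in WT mice (adjusted p = 0.0204).

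Hippocampus and cortex did not differ in Maff beyond their spread, at -0.38 ± 0.25 in KO and -0.15 ± 0.25 in WT mice. On the shared slide, brainstem minus hippocampus was 1.88 in KO and 1.45 in WT mice. With the slide as a block the WT difference was 1.55, and with normexp the KO differences were 0.52 against cortex and 0.79 against hippocampus. The WT difference between brainstem and cortex was not called without WT cortex array 1 (0.61, adjusted p = 0.1002), WT brainstem array 2 (0.0670) or WT brainstem array 3 (0.0636). The KO difference was not called without KO cortex array 2 (0.76, adjusted p = 0.0602) or KO brainstem array 3 (0.56, adjusted p = 0.0795). Between genotypes Maff was not called, at -0.09 ± 0.15 over the regions, with a 95% interval of -0.403 to 0.219.

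Mafg and Mafk, the other small Mafs, were called in no comparison. Mafg ran from 0.66 to 1.44 in KO and from 1.19 to 1.51 in WT brainstem, from 0.85 to 1.06 in KO and from 1.03 to 1.13 in WT hippocampus, and from 0.85 to 1.21 in KO and from 0.95 to 1.35 in WT cortex. Mafk ran from -2.09 to -1.85 in KO and from -1.93 to -1.74 in WT brainstem, from -2.06 to -1.85 in KO and from -1.88 to -1.70 in WT hippocampus, and from -2.48 to -2.04 in KO and from -2.14 to -2.03 in WT cortex. The genotypes overlapped in every region for both genes. Over the regions the KO minus WT difference was -0.158 ± 0.105 for Mafg (adjusted p = 0.742) and -0.129 ± 0.069 for Mafk (adjusted p = 0.729). Each was negative in all 3 regions and under all 29 alternatives, which reuse the same arrays and in part keep the estimate unchanged by construction. The Mafk difference from cortex was 0.26 ± 0.12 in KO (adjusted p = 0.108) and 0.28 ± 0.12 in WT brainstem (adjusted p = 0.0881), and 0.23 ± 0.12 in KO and 0.29 ± 0.12 in WT hippocampus. Without KO brainstem array 3, Mafg was called higher in KO brainstem than in hippocampus (0.42, adjusted p = 0.0286, in place of 0.17) and than in cortex (0.42, adjusted p = 0.0334, in place of 0.17), as was Mafk than in cortex (0.34, adjusted p = 0.0467). Without KO cortex array 1, the WT differences of Mafk from cortex were called in brainstem (adjusted p = 0.0315) and in hippocampus (0.0421).

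Over the 8 members measured on all arrays, brainstem minus hippocampus called 4 in KO and 4 in WT mice, all higher in brainstem (Nfe2l1, Nfe2l3, Bach1 and Maff). Brainstem minus cortex called 3 in KO and 3 in WT mice, all higher in brainstem (Nfe2l3, Bach1 and Maff). Hippocampus minus cortex called Nfe2l1 in each genotype, lower in hippocampus. Over the whole array, 40.6% of genes in KO and 41.5% in WT mice were called between brainstem and hippocampus, with 21.7% in KO and 23% in WT mice higher in brainstem. Between brainstem and cortex it was 35.6% in KO and 35.8% in WT mice, with 18.9% in KO and 19.1% in WT mice higher in brainstem, and between hippocampus and cortex 16.6% in KO and 17.2% in WT mice, with 9.43% in KO and 10.4% in WT mice lower in hippocampus. Regardless of direction, the shares of the 8 members called were near these. Counting Nfe2, the calls were 5 of 9 in KO and 5 of 9 in WT mice for brainstem minus hippocampus, 3 and 4 for brainstem minus cortex, and 1 and 1 for hippocampus minus cortex. In KO mice the Nfe2 call compared groups that were both below background, so no difference is given for it. In WT mice the direction of the Nfe2 calls was fixed by the filter, so the counts with Nfe2 are a description. The KO comparisons share no array with the WT ones, but the KO and WT arrays of a region lie on the same slides. Cortex shares no slide with the other regions, so a slide effect would enter its comparisons in both genotypes alike.

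**Figure D4:**
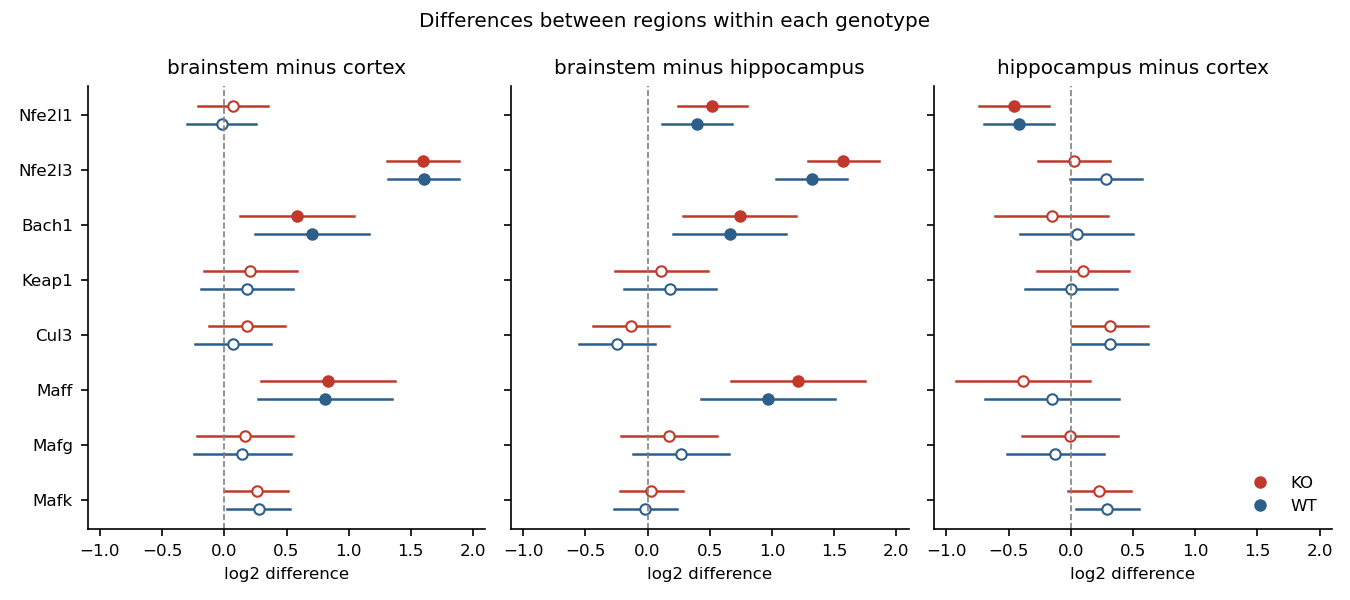
Log2 difference between regions, with its 95% interval (limma), for the 8 members in KO mice (red) and in WT mice (blue); filled points had an adjusted p under 0.05. Nfe2l3 lies between 1.32 and 1.60 in the 2 panels with brainstem, and Keap1, Cul3, Mafg and Mafk have no filled point.

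Cell types differ between the regions. Some of their markers were higher in brainstem, as Nfe2l3, Maff and Bach1 were, and others were lower. All 4 oligodendrocyte markers (Mbp, Mog and Mag among them) were higher in WT brainstem than in WT cortex, with a median of 1.28 log2 units. Their summed level was 288 to 381 in KO and 269 to 321 in WT brainstem, 118 to 214 in KO and 154 to 198 in WT hippocampus, and 144 to 163 in KO and 140 to 167 in WT cortex. In the same comparison 2 of 3 astrocyte markers and 1 of 3 endothelial markers were higher, and 2 of 3 neuronal and 2 of 3 microglial markers were lower. Over all genes, 19.1% were called higher and 16.6% lower there. The part of cell types in the regional differences was not tested.

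The proteins that act with the members were examined through lists of genes. Between KO and WT mice, limma called no member of 7 of the 8 pathway lists in any region: 0 of 31 proteasome subunits, 0 of 15 genes of the Keap1-Cul3 ligase machinery and Keap1 binders, 0 of 7 genes of Gsk3, beta-TrCP and other Nrf2 ligases, 0 of 10 coactivators and DNA-binding cofactors, 0 of 6 Nfe2l1-processing genes, 0 of 4 genes of Bach1 degradation and Bach targets, and 0 of 3 large Maf factors tested. Only 0.0176% to 0.0309% of all genes were called in a region, so the absence of calls in lists of this size says little about them. The proteasome subunits, whose genes Nfe2l1 controls, had a median KO minus WT difference of -0.020 in brainstem, 0.043 in hippocampus and -0.031 in cortex, beside 0.002, 0.022 and 0.001 over all genes. The nearest to a call over the regions were Btrc, a subunit that recognises Nrf2 after Gsk3 has acted on it (-0.27 ± 0.11, adjusted p = 0.708), Ngly1, which removes glycans from Nfe2l1 (0.15 ± 0.07, adjusted p = 0.725), Dpp3, a Keap1 binder (-0.14 ± 0.07, adjusted p = 0.728), and Prdm1, a target of Bach2 in B cells (-0.20 ± 0.13, adjusted p = 0.741). The exception was the list of 12 antioxidant response element targets, of which 3 fell in the mean of the regions: Gstm1 by 0.95, Gstm3 by 0.996 and Osgin1 by 1.66 log2 units. In the single regions 3 fell in brainstem, 2 in hippocampus and 3 in cortex. This list, like the others, was chosen with earlier results of these data known, so its calls are a description.

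Between regions the lists are read beside the shares of all genes called higher in brainstem, given above, and of those called lower, which were 18.9% in KO and 18.5% in WT mice against hippocampus and 16.7% in KO and 16.6% in WT mice against cortex. Proteasome subunits were higher in brainstem than in hippocampus for 12 of 31 in KO and 15 of 31 in WT mice, and higher than in cortex for 12 in KO and 13 in WT mice, with none lower in either. Psmd1, a scaffold subunit of the regulatory particle, exceeded cortex by 0.68 log2 units in WT brainstem, the core subunit Psmb1 by 0.47. Of the 6 genes whose products process Nfe2l1, 2 in KO and 2 in WT mice were lower in brainstem than in cortex, and 3 in KO and 3 in WT mice lower than in hippocampus. In WT mice Fbxw7, a ligase subunit that marks Nfe2l1 for degradation, fell by 1.46 against cortex and by 1.06 against hippocampus, and Ogt, the O-GlcNAc transferase, fell by 0.47 and by 0.58, with Hcfc1, its chromatin partner, lower than in hippocampus by a difference of -0.93. In KO mice 7 of the 12 antioxidant response element targets were higher in brainstem than in cortex, and 7 were higher and 1 lower than in hippocampus. In WT mice 6 were higher in brainstem than in hippocampus and 7 than in cortex, led by G6pdx (1.01), which supplies NADPH, and Gclm (0.97) and Gclc (0.68), which make glutathione.

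Among the 15 partners of Keap1 and Cul3, 5 in KO and 7 in WT mice were higher in brainstem than in hippocampus, and 2 in KO and 3 in WT mice higher than in cortex, the last 2 counts at or below the share of all genes. Those higher in WT brainstem than in hippocampus included Ube2m, the Nedd8-conjugating enzyme that activates cullins (0.47), Dpp3 (0.50) and the autophagy receptor Sqstm1 (0.40), and those higher than in cortex Amer1 (0.96) and Trim21 (0.61). Hmox1, the heme oxygenase that Bach1 represses, was higher in WT brainstem, by 0.49 than in cortex and by 0.51 than in hippocampus, in the same comparisons as Bach1 itself. Prdm1 was lower in WT brainstem than in cortex by a difference of -0.82. Of the large Mafs, which unlike the small Mafs carry an activation domain, Nrl was higher in WT brainstem than in cortex by 1.44 and lower than in hippocampus (-0.79). The kinase Gsk3b was higher in WT brainstem (0.63) and in WT hippocampus (0.42) than in cortex. Of the coactivators, Jun (-1.35), Ep300 (-0.47) and Crebbp (-0.40) were lower and Chd6 (0.39) was higher in WT brainstem than in hippocampus, and Med16 alone was called, lower, against cortex.

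For the members whose 6 group means spanned at least 1 log2 unit, the genes with the nearest pattern were found by the root mean square difference of the 6 means, after centring each gene on its own mean. The pattern of Nfe2l3 was matched most closely by Arsg (0.019 log2 units) and Mthfd2l (0.045), and 325 genes lay within 0.25. For Maff they were Adamts16 (0.033) and Amotl2 (0.045), with 1502 genes within 0.25. For Nfe2 no gene lay within 0.25: the nearest were Plg (0.37), itself well above background on only 6 arrays, and Slc5a11 (0.56). These are likenesses over 6 means, and nothing of shared function or control follows from them.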

How the data were processed

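Each scanner file is the Agilent Feature Extraction 10.7.3.1 output of 1 array, per the file headers, and holds the deposited processed intensity of each spot, background-subtracted by the authors' scanner software. Probes were named through the deposited RefSeq accessions (26690 probes with 1 symbol, 14484 with none). The series' table of intensities was deposited by the authors, and log2 was taken here. In it, 7 of its 18 columns held another array than the one named, some of them of another region or genotype. It therefore served only as an alternative. Control and outlier spots were left out, spots of a probe averaged, and log2 intensities centred on each array's 75th percentile (636 to 1102 intensity units). Probes had to be well above background in some group, on each of its 3 arrays (30066 did), and a gene was represented by its brightest such probe (22671 genes, 14825 with a symbol).

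1 mean per group was fitted over 18 arrays with limma 3.58.1 (R 4.3.3; lmFit, eBayes), with Benjamini-Hochberg adjustment across the 22671 genes, or the 30066 probes for the other Nfe2l3 probe. The fit was tested on simulated data. A probe below background in a whole group was given a bound: the mean of the bright group against, per array, the higher of the probe's own level and the lowest level well above background. Replicates are separate mice by their numbers in the labels, and 3 arrays per group limit the precision. Same-numbered KO and WT samples of a region deviated together (9 of 9 correlations between 0.239 and 0.622), all on shared slides. Samples of 1 genotype from different regions carry the same mouse numbers per the labels, which do not say outright that these are the same animals (14 of 18 correlations over 0.1). A block on the number alone, shared by KO and WT mice, was therefore an alternative (the replicate block). For comparisons of regions, so was a block on the mouse within its genotype (the mouse as a block). Other alternatives were quantile scaling, a percentile over detected probes, normexp background correction on the median foreground signal (mean signals were not used here), other probe filters, the mean of a gene's probes, a trended robust fit, the slide as a block, the authors' table, and leaving out each array in turn. Slides 1 and 2 held brainstem, 2 and 3 hippocampus, 4 and 5 cortex, each with both genotypes.

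The members and lists were chosen with earlier results of these data known. Named are all members, up to 4 called genes of each list or otherwise the gene with the smallest p, and the 2 genes nearest in pattern to members spanning at least 1 log2 unit. Some genes of the lists are not reported here by name.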

Additional observations from a re-analysis of the deposited data

How the results depend on the processing

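Among the counts of members called, the 0 for KO against WT hippocampus, for KO against WT cortex and for the 3 tests of the effect between regions held under all 29 alternatives. The count of 1 in KO against WT brainstem, which is Nfe2, was 0 with normexp (adjusted p = 0.994), without a filter on dim probes (0.0523), with a filter requiring every array (Nfe2 was then not tested), with the replicate block (0.0619), with the slide as a fixed block (0.0816) and in the authors' table (0.490). It ranged from 0 to 1 when single arrays were left out. It was 0 without WT brainstem 1, 2 or 3, KO brainstem 1 or 3, or WT cortex 1, and the adjusted p ranged from 0.00633 to 0.169. For the mean of the regions the count was 0 with normexp, the filter requiring every array, the fixed slide block and the authors' table, and 0 to 1 over the arrays left out, with 0 in 13 of 18. Hippocampus minus cortex, with 1 call per genotype, gave 0 in KO and in WT mice without a filter, with the slide as a random block and in the authors' table, and 0 to 1 in KO and 0 to 2 in WT mice over the arrays left out. Brainstem minus hippocampus in KO mice gave 3 in the authors' table, and 4 to 6 over the arrays left out. The same ranges were 3 to 5 for brainstem minus hippocampus in WT mice, and 1 to 3 in KO and 2 to 5 in WT mice for brainstem minus cortex. No called value changed sign, whereas uncalled KO minus WT differences over the regions did, under 10 of 29 alternatives for Cul3, 8 for Keap1, 7 for Nfe2l3, 2 for Bach1 and 1 for Maff, and so did KO brainstem minus hippocampus of Mafg under 1 of 30 (-0.17). The causes were not tested, except that normexp with its offset shrinks dim probes by construction. Over all genes, the mean of the regions had 12 calls as fitted and 23 with the replicate block, and no KO against WT call in the authors' table. Hippocampus minus cortex had 3765 calls in KO and 3905 in WT mice as fitted, against 0 and 4 in the authors' table. In that table, the column named KO cortex 3 holds a WT hippocampus array, and that named KO hippocampus 3 a KO cortex array. The column named WT hippocampus 3 holds a KO hippocampus array. Its groups are thus mixed, and its counts and adjusted p values cannot show how the results depend on the processing. A block of slide cannot be fitted between cortex and the other regions, which share no slide. Nfe2 rests near the background and cannot be compared outside brainstem.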

Other observations

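Of the markers of other tissue, 0 of 3 choroid plexus genes and 0 of 10 immediate early genes were called between KO and WT mice in any region, beside 0.0176% to 0.0309% of all genes. Between regions of WT mice, 8 of 10 immediate early genes were lower in brainstem than in cortex, where 16.6% of all genes were called lower, and 6 lower than in hippocampus, where 18.5% were. Of the blood markers, 2 of 4 neutrophil, 2 of 4 erythroid and 1 of 4 platelet genes were higher in WT brainstem than in WT hippocampus, beside 23% of all genes.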
